A study of Mus musculus with 6 samples.

Results

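The TNF superfamily ligands are the signalling proteins, most of them made as trimers anchored in the cell membrane, that engage receptors of the TNF receptor superfamily. The genes described here are 10 such ligands, chosen by gene symbol: Tnf, Lta, Ltb, Tnfsf14, Tnfsf8, Tnfsf9, Cd70, Fasl, Tnfsf10 and Tnfsf11. Each of the 10 has a row among the 49492 gene rows of the deposited count table, and all 10 passed the filter on low counts, as did 15186 rows in all.

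RNA was sequenced from CD8 T cells of C57/BL6 background mice aged 6 to 8 weeks. The 3 libraries labelled KO (replicates 4 to 6) came from NIK-CD4Cre-OT-I mice and the 3 labelled WT (replicates 1 to 3) from Wild Type-OT-I mice. NIK, encoded by Map3k14, is the kinase upstream of noncanonical NF-kB. Cre under Cd4 control deletes in thymocytes that go on to become CD4 or CD8 T cells, so a deletion would be present before the cells were stimulated. OT-I cells, in both groups, share 1 transgenic T cell receptor for an ovalbumin peptide. The labels do not say whether WT mice carried Cre or a floxed allele, nor whether each library was made from a different mouse, so p-values here measure the spread between libraries. Both groups' cells were naive splenic CD8 T cells cultured for 24 hours with anti-CD3 bound to the plate and soluble anti-CD28, both at 1 µg/ml, and no unstimulated library was analysed here.

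The ligands fall into families by receptor. TNF and the lymphotoxins signal inflammation and organise lymphoid tissue: TNF and the soluble lymphotoxin alpha trimer bind the TNF receptors, whereas lymphotoxin alpha joined to lymphotoxin beta on the cell surface binds the lymphotoxin beta receptor. LIGHT (Tnfsf14) also binds that receptor, and several receptors of the family, among them the lymphotoxin beta receptor and RANK, signal through NIK. The products of Tnfsf8, Tnfsf9 and Cd70 are costimulatory ligands, Fas ligand and TRAIL (Tnfsf10) trigger cell death, and RANKL (Tnfsf11) drives osteoclast and lymph node development. The genes lie partly in clusters, with Ltb, Tnf and Lta adjacent in the major histocompatibility complex on chromosome 17 and Tnfsf9, Cd70 and Tnfsf14 grouped further along the same chromosome.

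Total gene counts ran from 41311346 to 47851445 per KO library and from 45012963 to 46548251 per WT library, so 3 counts correspond to 0.0627 to 0.0722 CPM after TMM normalisation (counts relative to the scaled library size), a floor that covers counting error alone. Map3k14 was at 50.7, 64.5 and 54.7 CPM in the KO libraries and at 53.6, 65.5 and 65.3 CPM in the WT libraries (log2 fold -0.12, SE 0.11, edgeR adjusted p = 0.81). The count over the whole gene therefore did not separate the groups. Since a conditional allele can lose only some exons, it checks the labels only in part, and each direction below is between libraries as labelled. The 8 CD8 T cell markers, led by Thy1 and Cd8a, summed to 2798.1 to 2927.9 CPM in KO libraries and 2729.4 to 2872.7 CPM in WT libraries. Of the 8, 6 had estimates above 0 and 2 below (47.6% of all tested genes were below 0). EdgeR and DESeq2 called 0, with 1 higher at an unadjusted p under 0.05 in edgeR (3.82% of all tested genes). Every KO library lay above every WT library for 3 of the 8 (6.68% of all tested genes). By Xist and Y-linked counts, KO replicates 4 and 5 and WT replicate 2 came from male mice. KO replicate 6 and WT replicates 1 and 3 came from female mice, so sex was not balanced between the groups. Of all tested genes, edgeR's quasi-likelihood test called 1 at an adjusted p under 0.05 (0.00659%), and that gene is no TNF superfamily ligand.

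None of the 10 ligands passed the test between genotypes. EdgeR, DESeq2 and limma-voom each called 0 of 10, where DESeq2 called 0.586% of all tested genes. At an unadjusted p under 0.05 edgeR gave 3 of 10, against 7.26% of all tested genes. Ltb was the 1 with higher values in the KO libraries (3.82% of all tested genes), and Fasl and Tnfsf14 were the 2 with lower values (3.44%). Estimates were above 0 for 4 ligands and below 0 for 6 (47.6% of all tested genes), and the median log2 fold of KO over WT was -0.29, beside 0.007 over all tested genes. Every KO library lay above every WT library for Ltb and Tnfsf9 (2 of 10, against 6.68% of all tested genes), and no ligand had every KO library below every WT library (6.07% of all tested genes). The genes were selected with results of these libraries known, so these counts are descriptions.

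**Figure D1:**
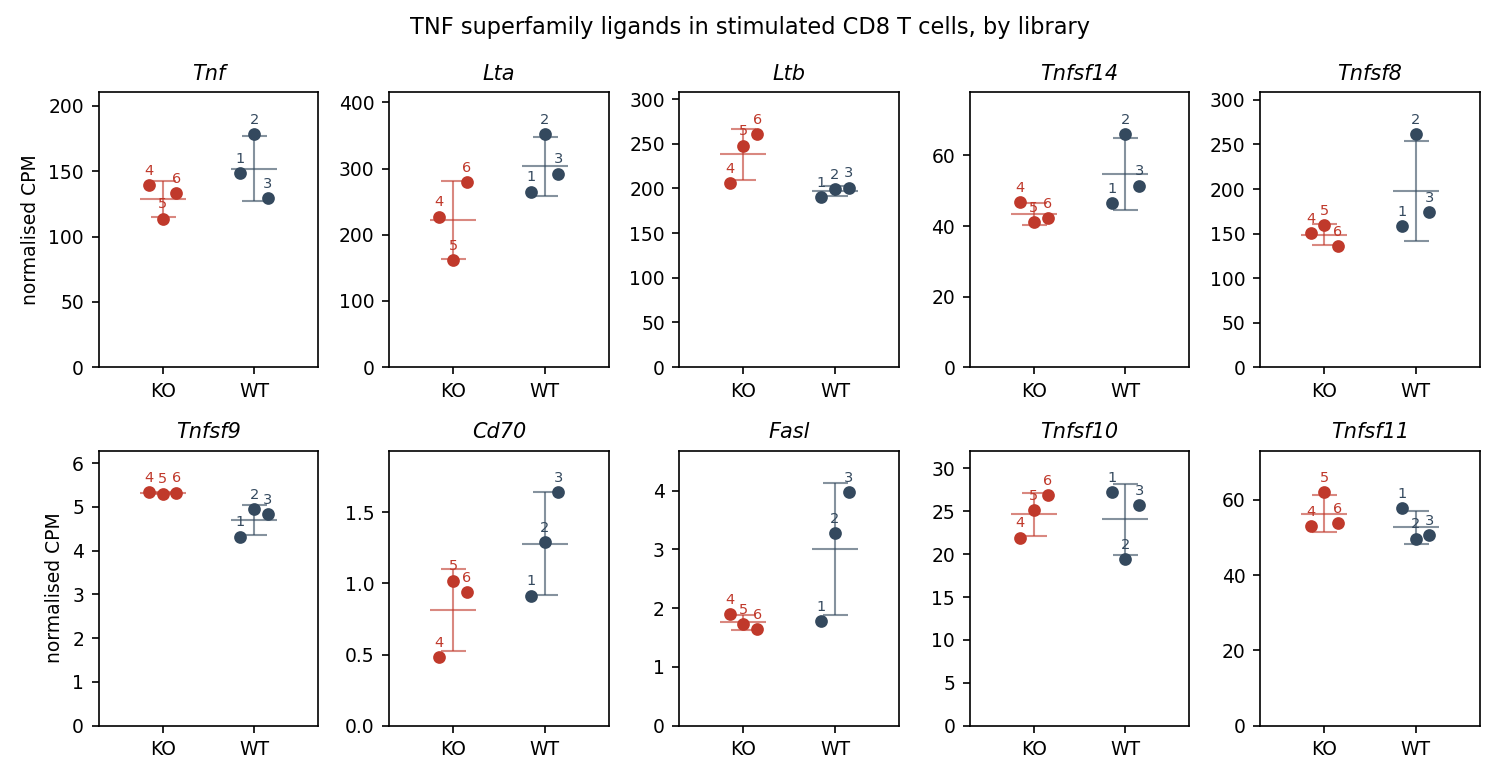
Normalised CPM (y axis, from 0, a scale for each panel) of the 10 ligands in the 3 KO and 3 WT libraries (x axis). Points are libraries labelled with their replicate number, and bars give the mean and SD. The groups are separate for Ltb and Tnfsf9 and overlap for the other 8 ligands.

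Ltb encodes lymphotoxin beta, the membrane anchor of the lymphotoxin heterotrimer (chromosome 17, 35194439 to 35196320, plus strand, GRCm38). It was at 206.0, 247.7 and 260.9 CPM in KO replicates 4, 5 and 6, against 190.2, 199.4 and 200.6 CPM in WT replicates 1, 2 and 3. The lowest KO library thus stood just above the highest WT library, and the KO libraries were spread more widely, with an SD of 28.6 CPM against 5.70 CPM. The fold of KO over WT was 1.21 (95% interval 1.05 to 1.39), with a log2 fold of 0.28 (SE 0.09), an unadjusted p of 0.014 and an adjusted p of 0.61 in edgeR. In bulk RNA, a change in the number of cells of a type and a change in RNA per cell cannot be told apart.

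Lta encodes lymphotoxin alpha, which is secreted as a trimer or held at the surface by lymphotoxin beta (chromosome 17, 35203165 to 35205351, minus strand, GRCm38). It was at 227.1, 161.9 and 279.3 CPM in KO libraries, against 265.3, 352.2 and 292.1 CPM in WT libraries. KO replicate 5 was the lowest and WT replicate 2 the highest, and the groups overlapped because KO replicate 6 exceeded WT replicate 1. The log2 fold of -0.44 (SE 0.20; edgeR adjusted p = 0.70) was opposite in sign to that of Ltb, and it was -0.26 without KO replicate 5 (adjusted p = 0.83).

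Tnf encodes TNF, the inflammatory cytokine shed from the surface by ADAM17 (chromosome 17, 35199381 to 35202007, minus strand, GRCm38). It was at 139.4, 113.6 and 133.1 CPM in KO libraries, against 148.3, 178.5 and 129.2 CPM in WT libraries. WT replicate 2 stood highest and WT replicate 3 lay within the KO range. The log2 fold was -0.24 (SE 0.13; edgeR adjusted p = 0.71), and -0.11 without WT replicate 2 (adjusted p = 0.97).

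Ltb, Tnf and Lta lie within 3.06 kb and 1.16 kb of each other, and the sequences upstream of their starts are shown because these neighbours had estimates of different sign. None of these estimates was called, and no link between sequence and estimate was tested. The sequences are from RefSeq on GRCm38.p6, 5′ to 3′ on the strand of the gene, from 250 bases before the start site. Capitals mark matches, on either strand, to a loose NF-kB motif of GGG, any 5 bases and CC. The Ltb stretch stops at position -69, ahead of an annotated exon.
Ltb (chr17:35194257-35194438, plus strand): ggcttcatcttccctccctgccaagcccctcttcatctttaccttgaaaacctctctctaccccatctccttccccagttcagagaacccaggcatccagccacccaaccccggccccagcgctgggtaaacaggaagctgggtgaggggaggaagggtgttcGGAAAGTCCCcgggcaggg
Tnf (chr17:35202008-35202257, minus strand): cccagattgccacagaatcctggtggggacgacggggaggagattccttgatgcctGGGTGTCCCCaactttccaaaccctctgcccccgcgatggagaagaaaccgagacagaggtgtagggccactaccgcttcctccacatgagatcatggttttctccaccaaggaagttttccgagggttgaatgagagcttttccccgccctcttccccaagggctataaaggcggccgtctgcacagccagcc
Lta (chr17:35205352-35205601, minus strand): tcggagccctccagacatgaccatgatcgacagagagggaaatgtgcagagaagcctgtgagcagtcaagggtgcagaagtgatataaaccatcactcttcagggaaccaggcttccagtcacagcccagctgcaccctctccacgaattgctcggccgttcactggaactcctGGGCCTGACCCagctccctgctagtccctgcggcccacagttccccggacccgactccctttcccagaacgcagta

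The match shown for Ltb starts 87 bases before the RefSeq start site, which lies downstream of the GENCODE gene start at 35194439. Its other strand reads GGGACTTTCC, looked up after the match was seen, the word of the immunoglobulin kappa enhancer for which NF-kB is named. That word was found in 46 of 32851 promoter windows of 250 bases (0.14%), both strands searched, and in 1 of the 8 ligands with a window in the table, Ltb. The exact words of the ligands' other matches were in 0.00913% to 0.451% of windows. The loose motif, counted with overlapping matches, was in 6 of the 8 windows and in 45.8% of all windows. It was not found for Tnfsf8 and Tnfsf10. The AP-1 motif TGANTCA was in 1 of the 8, Tnfsf14, and in 6.75% of all windows, and the NFAT core GGAAA, which can overlap a match of the NF-kB motif as it does in Ltb, was in 8 of the 8 and in 55.6% of all. Ltb also has 3 overlapping matches of the loose motif at positions -40, -39 and -38, in the part of its window that is not shown. That part lies inside the gene as GENCODE annotates it. A match says only that these letters occur in the window.

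The mRNAs also differ in AU-rich elements, the 3′ untranslated signals bound by decay factors such as tristetraprolin (Zfp36). The 3′ untranslated region of Tnf, 764 bases long in the GENCODE M21 transcript Tnf-201, held 5 copies of the nonamer TTATTTATT, counted with overlaps, and that of Lta held 1. No other ligand held the nonamer, which is present in 7.75% of genes with such a region, and in more than 1 copy in 1.9%. Stretches of 30 bases are shown with the nonamers in capitals, and the Tnf stretch holds 4 of its 5 copies.
Tnf: taTTATTTATTATTTATTTATTATTTATTt
Lta: gaaaagttaagTTATTTATTtatagagaat
The shorter word ATTTA was found in 9 of the 10 ligands and in 65.4% of genes. It was not found in Ltb, whose region of 174 bases is short beside the median of 967 bases over genes.

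Tnfsf14 encodes LIGHT, which binds the lymphotoxin beta receptor and HVEM (chromosome 17, 57189492 to 57194177, minus strand, GRCm38). It was at 46.8, 41.1 and 42.3 CPM in KO libraries, against 46.5, 66.1 and 51.4 CPM in WT libraries. The groups overlapped only at KO replicate 4 and WT replicate 1, and WT replicate 2 stood apart at the top. The log2 fold was -0.33 (SE 0.13), with an unadjusted p of 0.038 and an adjusted p of 0.67 in edgeR. It was -0.17 without WT replicate 2 (adjusted p = 0.97) and -0.43 without WT replicate 1 (adjusted p = 0.16).

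Among the costimulatory ligands, Tnfsf8, whose product binds CD30, had the highest level, also per exon length (chromosome 4, 63831308 to 63861347, minus strand, GRCm38). It was at 150.5, 159.6 and 136.0 CPM in KO libraries, against 158.2, 261.8 and 174.0 CPM in WT libraries. WT replicate 2 alone exceeded the other 5 libraries by a wide margin. The log2 fold of -0.41 (SE 0.18; edgeR adjusted p = 0.70) became -0.16 without that library (adjusted p = 0.97).

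Tnfsf9 encodes the ligand of the costimulatory receptor Tnfrsf9 (chromosome 17, 57105325 to 57107757, plus strand, GRCm38). It was at 5.33, 5.30 and 5.32 CPM in KO libraries, from 255, 233 and 221 counts, and at 4.32, 4.95 and 4.83 CPM in WT libraries, from 194, 226 and 224 counts. The KO values all lay above the WT values, and their agreement is closer than counting error at these depths, since the count in KO replicate 6 alone has an exact Poisson 95% interval of 192.8 to 252.1. The log2 fold was 0.18 (SE 0.11; 95% interval of the fold 0.951 to 1.34; edgeR adjusted p = 0.72).

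Cd70 encodes the ligand of CD27 (chromosome 17, 57145997 to 57149777, minus strand, GRCm38) and was among the ligands with the fewest counts. It had 23, 45 and 39 counts in KO libraries (0.481, 1.02 and 0.939 CPM) and 41, 59 and 76 counts in WT libraries (0.913, 1.29 and 1.64 CPM). KO replicate 4 was lowest and WT replicate 3 highest, and the groups overlapped at WT replicate 1. EdgeR's log2 fold was -0.66 (SE 0.34; adjusted p = 0.70), with a 95% interval of the fold from 0.364 to 1.10. It was -0.39 without KO replicate 4 (adjusted p = 0.71) and -0.44 without WT replicate 3 (adjusted p = 0.99).

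Fasl had the estimate farthest from 0 of the 10 ligands (chromosome 1, 161780689 to 161788495, minus strand, GRCm38). Its product kills cells that carry the receptor Fas. It had 91, 76 and 68 counts in KO libraries (1.90, 1.73 and 1.64 CPM), against 80, 150 and 184 counts in WT libraries (1.78, 3.28 and 3.97 CPM). WT replicate 1 sat among the KO libraries while WT replicates 2 and 3 stood apart above. The fold was 0.583 (95% interval 0.366 to 0.930), with a log2 fold of -0.78 (SE 0.29), an unadjusted p of 0.029 and an adjusted p of 0.65 in edgeR. Without WT replicate 1 the log2 fold was -1.04 with an adjusted p of 0.058, the smallest of any ligand under any alternative. In that setting edgeR called 119 of all tested genes. Without WT replicate 3 the log2 fold of Fasl was -0.53 (adjusted p = 0.99).

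Tnfsf10, which encodes TRAIL (chromosome 3, 27317028 to 27342427, plus strand, GRCm38), was at 21.9, 25.1 and 26.9 CPM in KO libraries and 27.2, 19.4 and 25.7 CPM in WT libraries. The ranges coincided, with a log2 fold of 0.03 (SE 0.14; 95% interval of the fold 0.813 to 1.28; edgeR adjusted p = 0.97) whose sign turned without KO replicate 6 or WT replicate 2. Tnfsf11, which encodes RANKL (chromosome 14, 78277445 to 78308043, minus strand, GRCm38), was at 53.1, 62.0 and 53.9 CPM in KO libraries and 57.8, 49.7 and 50.7 CPM in WT libraries. The groups overlapped, and the log2 fold was 0.10 (SE 0.08; edgeR adjusted p = 0.80), with 0.932 to 1.23 as the 95% interval of the fold.

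**Figure D2:**
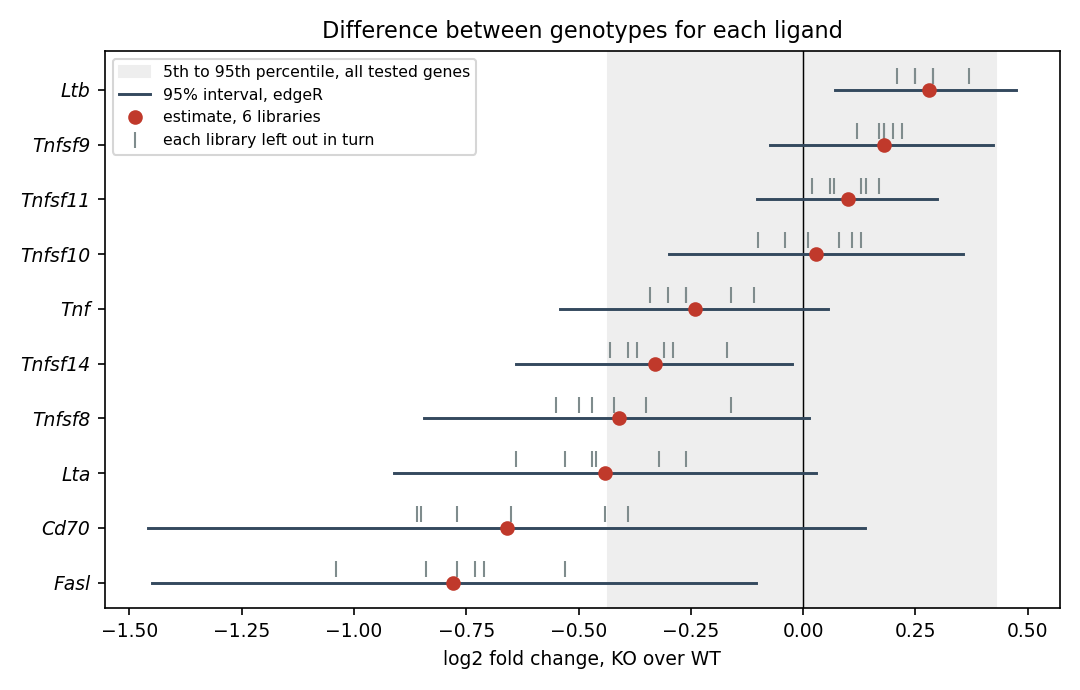
Log2 fold change of KO over WT (x axis) for each ligand. Points are estimates from the 6 libraries, lines their 95% intervals in edgeR, ticks the estimates with each library left out in turn, and the grey band the 5th to 95th percentile of all tested genes. The estimates run from -0.78 for Fasl to 0.28 for Ltb, and the intervals of Fasl, Tnfsf14 and Ltb do not include 0 before adjustment.

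Per kilobase of exon, the mean of the highest ligand was 154.5 times that of the lowest, and the order of the means differed between genotypes only for 2 neighbouring pairs, Tnfsf14 with Tnfsf11 and Cd70 with Fasl. On this scale (normalised CPM per kb of annotated exon) Lta averaged 161.1 ± 42.5 in KO and 219.2 ± 32.2 in WT libraries, and Ltb 157.1 ± 18.9 in KO and 129.8 ± 3.76 in WT libraries (SD, n = 3 each). Lta exceeded Ltb in 2 of 3 KO libraries and in 3 of 3 WT libraries. Tnf followed at 78.5 ± 8.20 in KO and 92.8 ± 15.2 in WT libraries, and then Tnfsf8 at 39.1 ± 3.13 in KO and 52.0 ± 14.7 in WT libraries. Tnf lay below Ltb, and Tnfsf8 below Tnf, in every library.

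Tnfsf14 and Tnfsf11 were not separated in level. Tnfsf14 averaged 23.5 ± 1.63 in KO and 29.6 ± 5.52 in WT libraries and Tnfsf11 25.2 ± 2.20 in KO and 23.6 ± 1.99 in WT libraries (CPM per kb, SD, n = 3 each), with Tnfsf14 the higher in 1 of 3 KO and 2 of 3 WT libraries. Tnfsf10 and Tnfsf9 came next, at 4.68 ± 0.481 and 4.12 ± 0.0136 in KO libraries and at 4.58 ± 0.787 and 3.64 ± 0.259 in WT libraries. Tnfsf10 was above Tnfsf9 in 3 of 3 KO and 2 of 3 WT libraries, so these neighbours were not fully separated either. Cd70 and Fasl were lowest and could not be ordered, at 0.967 ± 0.346 and 0.906 ± 0.0697 in KO libraries and at 1.52 ± 0.432 and 1.56 ± 0.578 in WT libraries. As a share of the summed level of the 10 ligands, Ltb made up 31.8% ± 4.02 in KO and 23.4% ± 2.28 in WT libraries, and Lta 32.2% ± 5.67 in KO and 39.2% ± 1.44 in WT libraries (SD, n = 3 each).

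**Figure D3:**
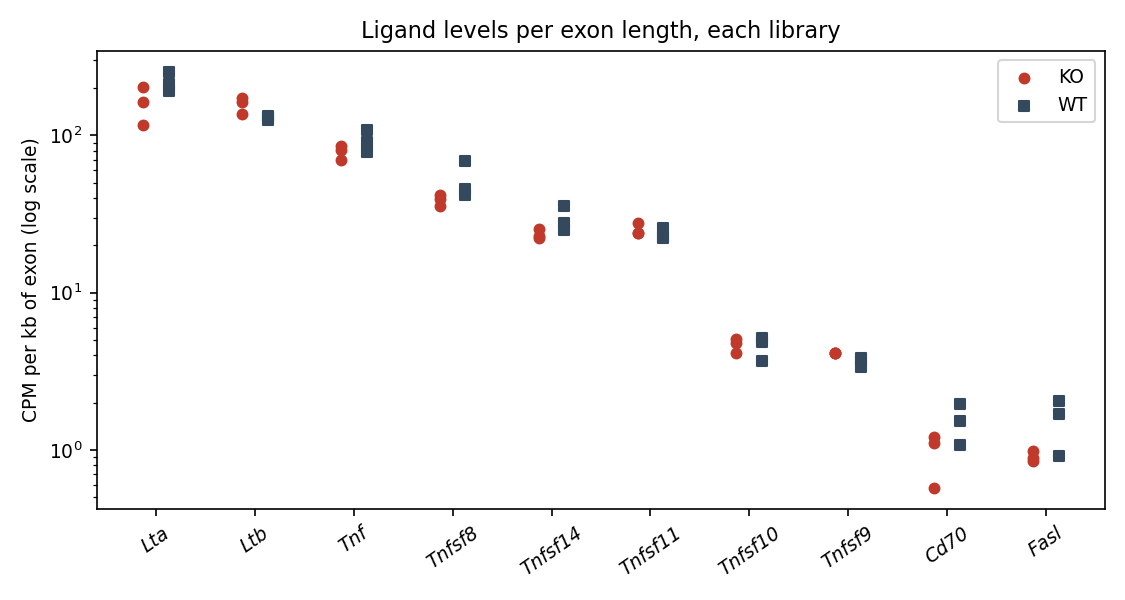
Level of each ligand in normalised CPM per kb of exon (y axis, log scale), ordered by the mean of the 6 libraries (x axis). Circles are KO and squares WT libraries. Lta and Ltb are highest, Cd70 and Fasl lowest, and Tnfsf14 overlaps Tnfsf11.

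Libraries within a genotype also differed from each other across the ligands. Of the 10 ligands, WT replicate 2 held the highest value for 4 (Tnf, Lta, Tnfsf14 and Tnfsf8) and the lowest for 2 (Tnfsf10 and Tnfsf11), and WT replicate 3 held the highest for 2 (Cd70 and Fasl). WT replicate 2 also had the highest sum of the 8 B cell markers, while Ltb, a gene that B cells express too, lay there between the other WT libraries. The B cell marker sum was 29.1, 31.8 and 42.1 CPM in KO replicates 4, 5 and 6, against 24.8, 76.7 and 48.0 CPM in WT replicates 1, 2 and 3 (exact two-sided permutation p = 0.5), led by Cd79b and Pax5. All 8 of these markers had negative estimates (47.6% of all tested genes) and 0 were called. The part of this signal in the ligands' values was not tested.

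Markers of other cells were low or are shared with T cells. The myeloid and dendritic list of 10 genes summed to 12.9 to 19.4 CPM in KO libraries and 10.6 to 14.1 CPM in WT libraries, led by Cd68 and Flt3, with Xcr1 at 1 count in all 6 libraries together. Its 6 tested genes had a median log2 fold of 0.67. Estimates were above 0 for 4 and below 0 for 2 (47.6% of all tested genes), among the latter Flt3 at -0.07. EdgeR and DESeq2 called 0 of the 6, and 1 had an unadjusted p under 0.05 in edgeR (7.26% of all tested genes). That gene, Lyz2, the lysozyme gene of macrophages and granulocytes, had 226, 44 and 110 counts in KO libraries, against 52, 44 and 15 counts in WT libraries (log2 fold 1.78, edgeR adjusted p = 0.64). The CD4 and regulatory T cell list of 5 genes summed to 54.3 to 71.6 CPM in KO and 60.8 to 87.6 CPM in WT libraries, most of it from Ikzf4, with Zbtb7b next. Its 4 tested genes had a median log2 fold of -0.33, with 3 estimates below 0 and 1 above, and edgeR and DESeq2 called 0. Foxp3, a marker of regulatory T cells, had 91, 134 and 200 counts in KO libraries, against 211, 157 and 533 counts in WT libraries (log2 fold -1.01, edgeR adjusted p = 0.70). Cd4, the 1 above 0, had 44, 37 and 30 counts in KO libraries, against 32, 34 and 17 counts in WT libraries (log2 fold 0.45, edgeR adjusted p = 0.75). The log2 fold of Ikzf4 was -0.04 (edgeR adjusted p = 0.95). The NK list of 6 genes summed to 177.2 to 282.9 CPM in KO and 212.1 to 228.1 CPM in WT libraries, nearly all from Eomes, which CD8 T cells also express. Its defining receptor genes Ncr1 and Klrb1c were at or under 3 and 8 counts in each library. Of its 3 tested genes, with a median log2 fold of -1.82, edgeR and DESeq2 called 0. Among them 2 had negative estimates with an unadjusted p under 0.05 in edgeR (3.44% of all tested genes). Gzma, a granzyme gene of cytotoxic cells, had 3, 4 and 19 counts in KO libraries, against 7, 35 and 118 counts in WT libraries (log2 fold -2.53, edgeR adjusted p = 0.69). Klre1, a lectin-like receptor gene, had 8, 6 and 12 counts in KO libraries, against 16, 35 and 45 counts in WT libraries (log2 fold -1.82, edgeR adjusted p = 0.60). For both genes WT replicate 3 was highest and WT replicate 2 next. The same order held for Fasl, which NK cells also express, and likewise for Cd70 and Tnfrsf9. The red cell, platelet and stromal list of 9 genes summed to 102.9 to 131.0 CPM in KO and 87.6 to 92.9 CPM in WT libraries (exact two-sided permutation p = 0.1, the smallest that 3 against 3 libraries allow). Nearly all of that came from Pecam1, also a T cell gene, with Cdh5 next and Gp9 and Pdgfra at 0. Pecam1 was at 102.4, 130.3 and 116.7 CPM in KO libraries, against 92.5, 90.6 and 86.5 CPM in WT libraries, and DESeq2 called it higher (log2 fold 0.37, DESeq2 adjusted p = 0.034), whereas edgeR did not (adjusted p = 0.57). Foxp3, Cd4, Lyz2 and Klre1 were named after their values were seen. The part of these cells in the ligands' values was not tested.

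**Figure D4:**
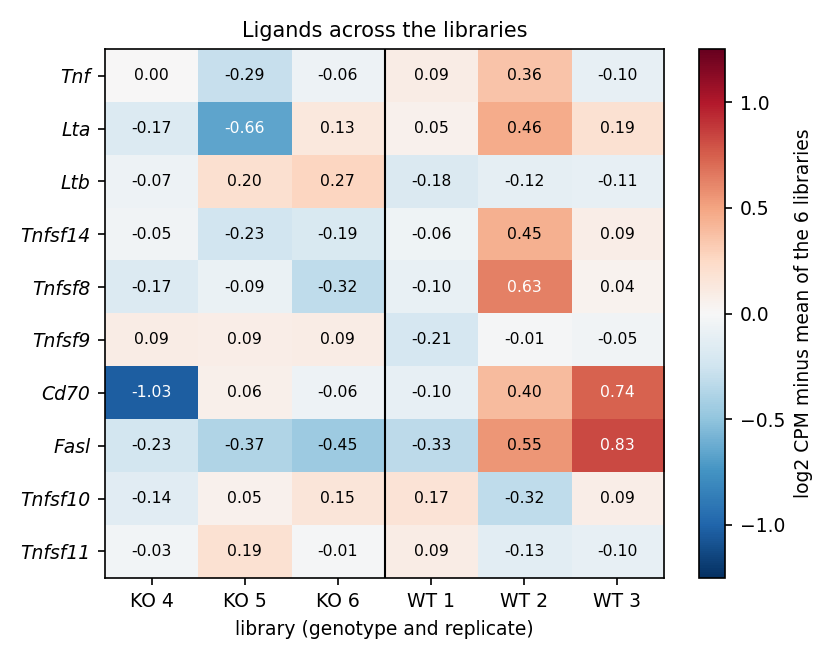
Each ligand's log2 normalised CPM in each library minus its mean over the 6 libraries (colour and printed value), with KO libraries left of WT libraries. WT replicate 2 is highest for Tnf, Lta, Tnfsf14 and Tnfsf8, and WT replicate 3 for Cd70 and Fasl, while KO replicates 5 and 6 are highest for Ltb.

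Of 13 receptor genes for these ligands 12 were tested, and edgeR and DESeq2 called 0. Estimates of unadjusted p under 0.05 in edgeR (7.26% of all tested genes) numbered 0 below 0 and 1 above 0. That gene was Fas, the death receptor for Fas ligand. It was at 36.7, 47.7 and 43.7 CPM in KO libraries, against 32.5, 30.6 and 34.4 CPM in WT libraries. Every KO library stood above every WT library for Fas (1 of the 12 tested, against 6.68% of all tested genes). Its log2 fold was 0.39 (SE 0.10, edgeR adjusted p = 0.60, DESeq2 adjusted p = 0.088), whereas the estimate of its ligand gene Fasl was negative.

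Receptors that costimulate T cells had overlapping groups. Tnfrsf9, the receptor for the Tnfsf9 product, was at 340.8, 368.9 and 424.4 CPM in KO and 349.5, 534.4 and 556.2 CPM in WT libraries (log2 fold -0.34, edgeR adjusted p = 0.70). Tnfrsf8, which encodes CD30, was at 7.17, 11.0 and 20.4 CPM in KO and 14.3, 19.6 and 25.2 CPM in WT libraries (log2 fold -0.62, edgeR adjusted p = 0.73). Cd27, the receptor for the Cd70 product, had an estimated log2 fold of 0.07 (edgeR adjusted p = 0.83), and its sign turned without KO replicate 5.

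The receptors of TNF, the lymphotoxins and LIGHT also had overlapping groups. Ltbr, which encodes the lymphotoxin beta receptor, a receptor of stromal and myeloid cells, was under 1 CPM in all 6 libraries, at 0.753, 0.341 and 0.866 CPM in KO and 0.312, 0.657 and 0.237 CPM in WT libraries. Tnfrsf14, which encodes HVEM, was at 39.0, 54.2 and 49.8 CPM in KO and 41.0, 43.7 and 43.2 CPM in WT libraries (log2 fold 0.16, edgeR adjusted p = 0.76). The TNF receptor genes Tnfrsf1a and Tnfrsf1b had log2 folds of 0.01 (edgeR adjusted p = 0.99) and -0.08 (edgeR adjusted p = 0.79), the sign of the first turning with upper-quartile scaling and without 4 of the 6 libraries in turn. The TRAIL receptor gene Tnfrsf10b had -0.10 as its estimated log2 fold (edgeR adjusted p = 0.82), while the related receptor genes Tnfrsf22 and Tnfrsf23 had log2 folds of 0.06 and -0.14. The gene for RANK, Tnfrsf11a, stayed between 1.14 and 2.12 CPM in every library, and its decoy Tnfrsf11b did not pass the filter.

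Other ligands of the family were low. Of 8 listed, Tnfsf12, Tnfsf13, Tnfsf18 and Eda did not pass the filter and had at most 2 counts in a library. Of the 4 tested, edgeR and DESeq2 called 0, and 0 had an unadjusted p under 0.05 in edgeR (7.26% of all tested genes). Cd40lg, the ligand gene of helper T cells, was at 1.36, 1.73 and 1.49 CPM in KO and 2.07, 3.02 and 1.23 CPM in WT libraries, an estimated log2 fold of -0.47 (edgeR adjusted p = 0.75). Tnfsf4, which encodes the OX40 ligand, had an estimated log2 fold of -0.24 (edgeR adjusted p = 0.82) and Tnfsf15 one of 0.32 (edgeR adjusted p = 0.84).

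Among 16 genes of transcription factors that act on ligand promoters, edgeR and DESeq2 called 0. Estimates of unadjusted p under 0.05 in edgeR (7.26% of all tested genes) numbered 1 above 0 and 1 below 0. Nfkb1, the precursor of the NF-kB subunit p50, was at 859.9, 887.8 and 906.9 CPM in KO libraries, against 963.1, 1066.2 and 1022.4 CPM in WT libraries. Of the 16, Nfkb1 was the 1 with every KO library below every WT library (6.07% of all tested genes). Its log2 fold was -0.20 (SE 0.06, edgeR adjusted p = 0.60, DESeq2 adjusted p = 0.074). Every KO library stood above every WT library for 2 of the 16 (6.68% of all tested genes), among them Nfatc3, an NFAT factor (log2 fold 0.11, edgeR adjusted p = 0.65). For Rela, the partner of p50, the groups overlapped (log2 fold -0.15, edgeR adjusted p = 0.70). The median over the 16 was -0.07.

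Of 10 genes that regulate ligand mRNA decay, 9 had positive estimates and 1 a negative one (47.6% of all tested genes were below 0). The median log2 fold was 0.08, beside 0.007 over all tested genes. EdgeR and DESeq2 called 0, with 1 higher at an unadjusted p under 0.05 in edgeR (3.82% of all tested genes). Zc3h12d, a relative of the RNase Regnase-1 that acts in lymphocytes, was at 156.4, 166.9 and 136.9 CPM in KO libraries, against 136.3, 127.2 and 120.2 CPM in WT libraries (log2 fold 0.26, edgeR adjusted p = 0.61). The genes for the Roquin proteins that bind stem loops in such mRNAs, Rc3h1 and Rc3h2, had log2 folds of 0.12 (edgeR adjusted p = 0.70) and 0.09 (edgeR adjusted p = 0.71).

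Among 8 genes of ligand shedding and processing, edgeR and DESeq2 called 0, with 1 lower at an unadjusted p under 0.05 in edgeR (3.44% of all tested genes). That gene, Rhbdf2, encodes iRhom2, which brings the TNF-shedding protease ADAM17 to the cell surface. It was at 17.3, 18.1 and 18.0 CPM in KO libraries, against 18.2, 32.8 and 25.4 CPM in WT libraries (log2 fold -0.52, edgeR adjusted p = 0.66). WT replicate 1 stood beside the KO libraries, as it did for Fasl, and without it edgeR called Rhbdf2 lower (log2 fold -0.71, adjusted p = 0.046). In that setting edgeR called 119 of all tested genes. Without WT replicate 2 the log2 fold of Rhbdf2 was -0.30 (edgeR adjusted p = 0.97). Rhbdf1, which encodes the related iRhom1, had an estimated log2 fold of -0.45 (edgeR adjusted p = 0.69). Every KO library lay below every WT library for Rhbdf2 and Rhbdf1 (2 of 8, against 6.07% of all tested genes). The membrane protease gene Sppl2a, whose product cleaves the membrane stubs of TNF and Fas ligand, had an estimated log2 fold of 0.07 (edgeR adjusted p = 0.73).

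Among 14 genes that signal directly below the receptors, edgeR and DESeq2 called 0. Estimates of unadjusted p under 0.05 in edgeR (7.26% of all tested genes) numbered 3 above 0 and 1 below 0. Tank, which encodes a TRAF-binding adaptor, was at 79.9, 89.1 and 91.6 CPM in KO libraries, against 74.7, 72.5 and 67.1 CPM in WT libraries (log2 fold 0.28, edgeR adjusted p = 0.60). Traf1, an NF-kB inducible adaptor gene, had an estimated log2 fold of 0.22 (edgeR adjusted p = 0.63) and Birc2, which encodes a ubiquitin ligase of the complex that degrades NIK, one of 0.27 (edgeR adjusted p = 0.66), both with overlapping groups. Cflar, named after its values were seen, encodes an inhibitor of caspase activation by death receptors. It was at 146.3, 149.0 and 152.6 CPM in KO libraries, against 153.3, 220.6 and 183.5 CPM in WT libraries (log2 fold -0.32, edgeR adjusted p = 0.67). Every KO library stood above every WT library for 3 of the 14, Tank among them (6.68% of all tested genes), and below for 1, Cflar (6.07%).

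**Figure D5:**
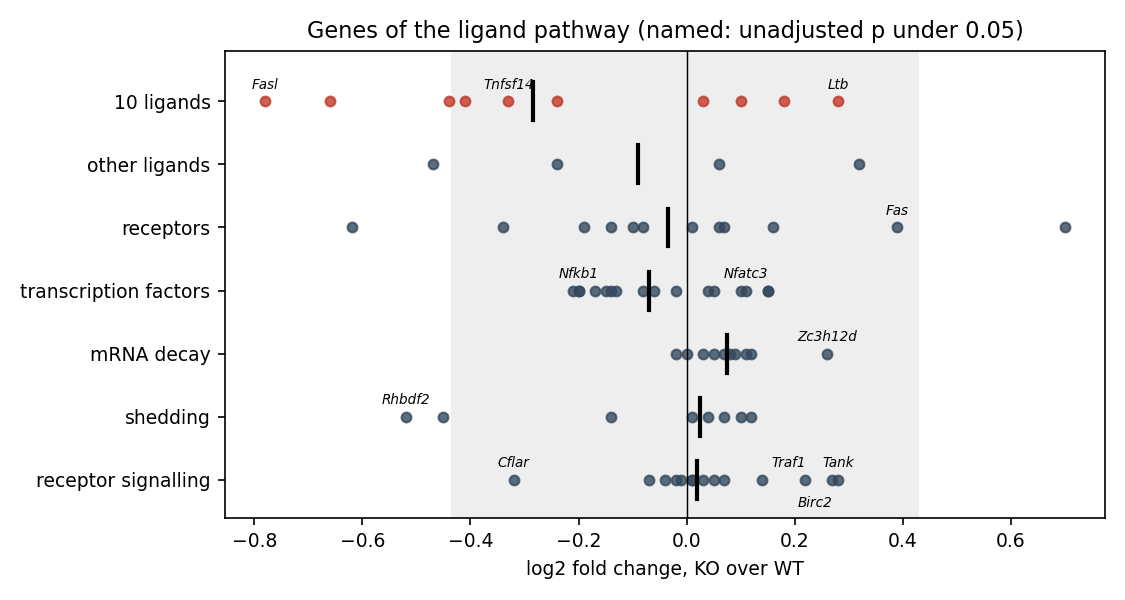
Log2 fold change of KO over WT (x axis) for the tested genes of the 10 ligands and of 6 related gene lists (y axis). Points are genes, black bars list medians, and the grey band the 5th to 95th percentile of all tested genes. Names mark genes with an unadjusted p under 0.05, and none of the genes shown passed adjustment over all 15186 tested genes.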

How the data were processed

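Trizol-isolated RNA went into Illumina libraries, per the labels' protocols. What the authors deposited is 1 table of raw counts by gene symbol, and 0 of its columns are unused here. HTSeq 0.9.1, DESeq2 and the build mm10 are named without a role, per the submitters' processing notes, while aligner, annotation and strandedness are not given in the sources used. Reads of overlapping genes therefore cannot be told apart.

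Columns were matched to samples by title. With edgeR 4.0.16 under R 4.3.3, counts were filtered by filterByExpr, scaled by TMM and tested by glmQLFit with robust estimation and glmQLFTest, genotype being the single term, with Benjamini-Hochberg adjustment over 15186 genes and a threshold of 0.05. The procedure was tested on simulated data. CPM use TMM-scaled library sizes; exon lengths and coordinates come from GENCODE M21 (GRCm38, the mm10 assembly). Pairs of libraries within a group differed beyond sampling noise (mean chi-square per gene 21.2 to 58.0). Alternatives were RLE and upper-quartile factors, other filters, DESeq2 1.42.0, limma-voom (limma 3.58.1), no robust estimation, a term for sex, and each library left out.

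The members and gene lists were chosen with earlier results of these data known. All 10 ligands, their receptors and the 3 genes of smallest p in each other list were named, and of each marker list the 2 highest.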

Additional observations from a re-analysis of the deposited data

How the results depend on the processing

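No ligand passed an adjusted p of 0.05 under any of the 14 alternatives to edgeR with all 6 libraries, and of 140 ligand estimates 2 turned sign, both of Tnfsf10, whose log2 fold ran from -0.10 to 0.13 with a library left out. Among the receptors, leaving out a library gave -0.01 to 0.12 for Cd27 and -0.01 to 0.04 for Tnfrsf1a, and upper-quartile factors gave -0.001 for Tnfrsf1a. The count of all genes called, 1 in edgeR, was 10 without a low-count filter and 89 in DESeq2, and ran from 1 to 119 with a library left out, 119 without WT replicate 1 and 2 without WT replicate 2. In the 6 related lists it ran from 0 to 1 with a library left out, the 1 being Rhbdf2 without WT replicate 1; the cause was not tested. With a term for sex, which was not balanced between the groups, edgeR gave Tnfsf8 a log2 fold of -0.52 (unadjusted p = 0.0029, adjusted p = 0.67). Tnfsf14 had -0.40 in that setting (unadjusted p = 0.0084, adjusted p = 0.68). The unadjusted edgeR p was also smaller with this term for Tnf (0.074) and Tnfsf10 (0.18). It was larger for Fasl (0.04), Ltb (0.017), Lta (0.089), Cd70 (0.16), Tnfsf9 (0.25) and Tnfsf11 (0.34). The share of all tested genes at such p was not computed in that setting. Ligand shares per length kept within their spread with the longest transcript or TPM. No paired analysis was possible because the replicate numbers are not shared between the genotypes. With 3 libraries per group the 95% interval of the Fasl fold ran from 0.366 to 0.930. The intervals did not follow the counts alone. That of Tnfsf9, with 194 to 255 counts in a library, ran from 0.951 to 1.34. That of Lta, with 7123 to 16088 counts, ran from 0.532 to 1.02.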

Other observations

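The ratio of Lta to Ltb per kilobase of exon, computed after the values of both genes were seen and with no test, was 1.21, 0.716 and 1.17 in KO replicates 4, 5 and 6, against 1.53, 1.94 and 1.60 in WT replicates 1, 2 and 3. The groups did not overlap for this ratio. They overlapped for Lta alone, but not for Ltb alone, the denominator. Groups of single genes did not overlap for 12.8% of all tested genes, and no such share was computed for ratios. The ratio of Tnf to Ltb overlapped, at 0.626, 0.424 and 0.472 in KO libraries and 0.721, 0.828 and 0.596 in WT libraries. Lymphotoxin alpha needs lymphotoxin beta to stay on the cell surface, and these ratios are of mRNA. The ratio of Lta to Tnf overlapped, at 1.93, 1.69 and 2.49 in KO libraries and 2.12, 2.34 and 2.68 in WT libraries.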
